A study of Sminthopsis crassicaudata with 9 samples.

Results

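The desmosome genes are a set of 10 genes whose products build the desmosome, a spot-like junction that holds neighbouring epithelial cells together. The set was defined by name: DSP, JUP, PERP, PKP1, PKP2, PKP3, DSG2, DSG3, DSC2 and DSC3. Of these 10 genes, 6 were matched by symbol among the 21703 gene models of the count table and are described here, and the 4 desmosomal cadherins DSG2, DSG3, DSC2 and DSC3 were not analysed here.

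The tissue was the face of newborn fat-tailed dunnart (Sminthopsis crassicaudata), a small carnivorous marsupial that is born at a very early stage and completes most of its facial development in the pouch. The histone marks H3K4me3 and H3K27ac were mapped by ChIP-seq in 2 replicates, each a pool of heads (26 and 27) from young less than 24 hours old, with an input library of the same pool as background. RNA was sequenced in 3 libraries from day 0, each a pool of 2 young, named FP1, FP2 and FP3 by their columns. Every sample was of the same tissue and age, so the values below are levels and their spread, and no test between groups was possible. A pool holds skin, oral epithelium, mesenchyme and muscle together, so in these bulk samples fewer cells of a type and less RNA per cell cannot be told apart.

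In a desmosome, cadherins of the desmoglein (DSG) and desmocollin (DSC) families span the gap between cells. Their tails bind armadillo proteins, plakoglobin (JUP) and the plakophilins (PKP), and these recruit desmoplakin (DSP), which anchors the junction to keratin filaments. PERP is a tetraspan membrane protein that stratified epithelia need for stable desmosomes. H3K4me3 typically marks active promoters, and H3K27ac marks active promoters and active enhancers.

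The RNA libraries held between 16096971 and 17419099 counts over 21692 gene models, after 11 models that the table breaks over more than 1 line were set aside. None of those 11 lay on a scaffold that holds a desmosome gene. RNA levels are given as TPM, a unit that corrects for exon length and library size, and a gene was called expressed above 1 TPM in all 3 libraries. The ChIP lists gave 108146 reproducible H3K4me3 peaks, 148724 reproducible H3K27ac peaks and 69124 putative enhancers, defined as reproducible H3K27ac peaks that share no base with a reproducible H3K4me3 peak. A peak was called reproducible at q below 0.05 if its overlap with a peak from the second pool made up 50% or more of either one. Peak strength is the fold enrichment over input at the summit.

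All 6 desmosome genes were expressed, beside 56.5% of all gene models. Above 10 TPM in all 3 libraries were 5 of the 6, beside 35.2% of all gene models. Their median level was 298 TPM, against 3.83 TPM over all gene models and 20.6 TPM over the expressed ones. The 6 genes lay on 6 different scaffolds of the dunnart assembly. Summed over the 6 genes, RNA amounted to 1081 TPM in FP1, 2481 TPM in FP2 and 2210 TPM in FP3. JUP and PERP each supplied between 26.9% and 29.9% of that sum in every library, PKP3 between 14.8% and 20.7%, DSP between 10.3% and 17.4%, PKP1 between 9.58% and 13.0%, and PKP2 less than any other gene, between 0.284% and 0.373%.

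DSP encodes desmoplakin, the plakin that ties the desmosomal plaque to keratin filaments. Its model, on scaffold00003_pilon_pilon from 22750376 to 22797944 on the plus strand, had the longest summed exons of the 6 genes (9955 bp). DSP was measured at 112 TPM in FP1, 432 TPM in FP2 and 317 TPM in FP3, a mean of 287 ± 162 (SD, n = 3). FP1 was the lowest library, and the coefficient of variation of 56.6% was the widest of the 6 genes. DSP ranked 449 of 21692 gene models by mean TPM.

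JUP encodes plakoglobin, an armadillo protein shared by desmosomes and adherens junctions. Its model lay on scaffold00100_pilon_pilon from 673717 to 704694, on the minus strand. JUP stood at 323 TPM in FP1, 668 TPM in FP2 and 653 TPM in FP3, with a mean of 548 ± 195 (SD, n = 3), the highest mean of the 6 genes. FP2 and FP3 were close to each other and FP1 was lower. JUP ranked 220 of all gene models.

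PERP, on scaffold00037_pilon_pilon from 17755639 to 17784990 on the plus strand, had a model of 4 exons. Its levels were 315 TPM in FP1, 683 TPM in FP2 and 620 TPM in FP3, a mean of 539 ± 197 (SD, n = 3). PERP and JUP could not be ordered. The ratio of JUP to PERP was 1.03 in FP1, 0.978 in FP2 and 1.05 in FP3, so JUP was the higher in 2 of 3 libraries and by little in each.

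The plakophilins differ in where they are known to act. PKP1 is best known from stratified epithelium such as skin, PKP3 from most epithelia, and PKP2 from simple epithelium and heart muscle. PKP3, on scaffold00017_pilon_pilon from 49786845 to 49802666 on the plus strand, was the most abundant of them here, with 224 TPM in FP1, 367 TPM in FP2 and 335 TPM in FP3 (309 ± 75.3, SD, n = 3). Its coefficient of variation, 24.4%, was the smallest of the 6 genes.

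PKP1, on scaffold00093_pilon_pilon from 5542235 to 5615611 on the minus strand, was measured at 103 TPM in FP1, 323 TPM in FP2 and 279 TPM in FP3 (235 ± 116, SD, n = 3). PKP3 exceeded PKP1 in all 3 libraries, 2.16-fold in FP1, 1.14-fold in FP2 and 1.20-fold in FP3, but their ranges over libraries overlapped. PKP3 and DSP changed order between libraries, with a ratio of PKP3 to DSP of 2.01 in FP1, 0.850 in FP2 and 1.06 in FP3.

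PKP2, on scaffold00051_pilon_pilon from 5935081 to 6057034 on the minus strand, was by far the least abundant plakophilin. It was measured at 4.03 TPM in FP1, 8.78 TPM in FP2 and 6.28 TPM in FP3 (6.36 ± 2.38, SD, n = 3), from 140, 251 and 196 counts. The model RNF138, of 1 exon and 3.60 TPM in the mean, lies inside PKP2 on the opposite strand, and the counting used strand. The 95% Poisson intervals, which cover counting error only, were 3.39 to 4.75 TPM, 7.73 to 9.94 TPM and 5.43 to 7.23 TPM, so the 3 libraries were separated by more than counting error. PKP1 exceeded PKP2 25.7-fold in FP1, 36.8-fold in FP2 and 44.4-fold in FP3, and the PKP2 range did not overlap that of any other desmosome gene. PKP2 ranked 9767 of all gene models and stood at percentile 55.0, while the other 5 genes stood between percentiles 97.4 and 99.0.

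In descending order of mean TPM the genes were thus JUP, PERP, PKP3, DSP, PKP1 and PKP2. Each neighbouring pair in this order had overlapping ranges over the 3 libraries, except PKP1 and PKP2. Among the pairs without PKP2, only JUP and PKP1 did not overlap, with JUP between 2.07-fold and 3.12-fold higher. That gap was narrow, between 322.9 TPM for JUP in FP1 and 322.7 TPM for PKP1 in FP2. Compared within each library, JUP and PERP each exceeded PKP3, DSP and PKP1 in all 3, PERP over PKP3 by 1.41-fold to 1.86-fold. PKP3 and DSP each exceeded PKP1 in all 3, DSP by 1.08-fold to 1.34-fold. Only JUP with PERP, and PKP3 with DSP, changed order between libraries.

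**Figure D1:**
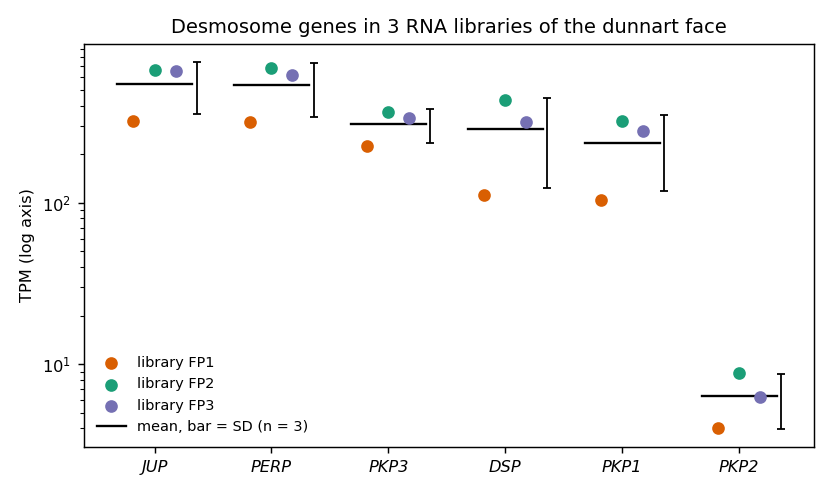
RNA level of each desmosome gene in TPM on a log axis, with 1 point for each of the 3 libraries, a line at the mean and a bar for the SD (n = 3). Library FP1 is the lowest point for each of the 6 genes, and PKP2 lies between 4.03 and 8.78 TPM, below every point of the other 5 genes.

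PKP2 is known from heart muscle as well as simple epithelium, and only heart muscle had a marker list of its own here. Simple epithelium had none, and KRT8, on the list of general epithelial markers, stood at 290, 294 and 282 TPM in FP1, FP2 and FP3. The part of either site in the PKP2 level was not tested. Of 7 heart muscle markers, 6 were annotated, and their sum was 74.5 TPM in FP1, 75.1 TPM in FP2 and 165 TPM in FP3. The transcription factor NKX2-5, also known from pharyngeal muscle progenitors, supplied nearly all of it, with 70.3, 73.9 and 163 TPM. TNNT2, the cardiac troponin T gene, which immature skeletal muscle is known to express as well, is not on that list and was measured at 332, 292 and 644 TPM. The atrial myosin light chain MYL7 had 0 counts in all 3 libraries, NPPA, which encodes the atrial natriuretic peptide, and the ventricular light chain MYL2 were at 0 in FP2 and FP3 and at 0.417 and 0.351 TPM in FP1, TBX5 did not exceed 0.108 TPM, and the cardiac troponin TNNI3 lay between 1.14 and 3.36 TPM.

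FP1 was the lowest of the 3 libraries for 6 of 6 desmosome genes, beside 39.1% of 12250 expressed genes. It was lower by 1.5-fold or more against both other libraries for 5 of 6, beside 7.42% of the expressed genes. The exception was PKP3, whose smaller fold lay just under that line, at 1.496. The smaller of the folds of FP2 and FP3 over FP1 was 2.84 for DSP, 2.69 for PKP1, 2.02 for JUP, 1.97 for PERP and 1.56 for PKP2, against a median of 0.919 over all expressed genes. DSP and PKP1 stood at percentiles 99.5 and 99.4 of the expressed genes for this fold, JUP and PERP at 98.0 and 97.8, and PKP2 and PKP3 at 93.8 and 92.5. Among the 1455 expressed genes with a mean above 100 TPM, DSP had rank 8 and PKP1 rank 13. The comparison of FP1 with the other libraries was not planned and was chosen after these values were seen. These shares describe 3 libraries of 1 condition, with no replicate of FP1.

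Library FP1 also differed from the others in a way that followed exon length. Over all expressed genes the median log2 ratio to FP1 was 0.25 for FP2 and -0.08 for FP3. For genes with less than 1500 bp of exon it was -0.12 and -0.24, and for genes with at least 8000 bp it was 0.50 and 0.05. The log2 ratios of DSP, whose exons fall in the longest class, were 1.95 for FP2 and 1.51 for FP3. Those of PERP, with 2444 bp of exon, were 1.12 and 0.98, against medians of 0.16 and -0.11 for genes with 1500 to 3000 bp. The part of exon length in the difference was not tested.

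The direction was the same under each other scaling tried, all of them chosen after the values were seen. The smaller fold over FP1 ranged over the 6 genes from 1.38 to 3.04 after scaling by TMM factors, which moved the median log2 ratio of FP2 to FP1 over all expressed genes from 0.25 to -0.005. It ranged from 1.55 to 2.94 without the 20 most abundant genes and from 1.44 to 2.76 in counts scaled to library size alone (CPM). PKP3 crossed the line of 1.5-fold in one of them, at 1.55 without the 20 most abundant genes.

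Of 5 further desmosome genes, PKP4 and CDSN were analysed. CDSN, which encodes corneodesmosin of the outermost epidermis, was measured at 151 TPM in FP1, 693 TPM in FP2 and 262 TPM in FP3, and PKP4, an armadillo protein of the same family as the plakophilins, at 35.0, 46.8 and 43.6 TPM. Both were lowest in FP1, CDSN by 1.74-fold and PKP4 by 1.25-fold.

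The linkers between desmosome and filament were represented by 3 of 5 genes. PPL (periplakin) was measured at 81.2, 263 and 147 TPM in FP1, FP2 and FP3, EVPL (envoplakin) at 157, 223 and 202 TPM, and PLEC (plectin) at 87.8, 81.4 and 105 TPM. PPL and EVPL, both plakins of the cornified envelope, were lowest in FP1, and PLEC, which also serves hemidesmosomes and muscle, was not.

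Keratins, the filaments that desmosomes hold, did not share that order. Of 8 annotated keratins of 12 listed, 2 were lowest in FP1, both by more than 1.5-fold, and their sum was 16319 TPM in FP1, 13439 TPM in FP2 and 19023 TPM in FP3. The 3 most abundant were KRT17 (8859, 5957 and 8473 TPM), KRT14 of basal cells (4372, 2965 and 5840 TPM) and KRT13 of the oral lining (1645, 3050 and 3087 TPM). The keratins lowest in FP1 were KRT13 and KRT4 (101, 413 and 416 TPM), which form a filament pair in the lining of the mouth; KRT4 was singled out after its values were seen. Levels of single keratins are uncertain where similar copies share reads.

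Among other junction genes, 7 of 8 annotated adherens junction genes were lowest in FP1, 2 of them by 1.5-fold or more, and so were 5 of 6 hemidesmosome genes, 1 of them by 1.5-fold or more. The most abundant of these were CTNNB1 (beta-catenin) with 505, 643 and 529 TPM in FP1, FP2 and FP3, and CD151, a tetraspanin of hemidesmosomes, with 481, 400 and 496 TPM. Of 14 transcription factors and splicing regulators of epithelium, 12 were lowest in FP1, 9 of them by 1.5-fold or more. Their sum was 770 TPM in FP1, 1247 TPM in FP2 and 1229 TPM in FP3, with ESRP2 (302, 295 and 342 TPM), KLF5 (101, 186 and 213 TPM) and KLF4 (91.1, 196 and 167 TPM) the most abundant.

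Of 9 general markers of epithelium, 8 were annotated. FP1 was the lowest library for 3 of them, a share near the 39.1% of all expressed genes, and lower by 1.5-fold or more for 2, CDH1 (E-cadherin) by 2.20-fold and the splicing regulator ESRP1 by 2.44-fold, both named after their values were seen. The lists share members, so their counts are not independent. CDH1 was also counted among the adherens junction genes, ESRP1 and ESRP2 among the regulators of epithelium, and the keratins of this list among the keratins. The sum of the 8 was 5193 TPM in FP1, 3909 TPM in FP2 and 6762 TPM in FP3, and KRT14 supplied most of it. Without KRT14 the remaining 7 summed to 821, 944 and 922 TPM, lowest in FP1. KRT14 was set aside after its values were seen, and only the same 3 of the 7 were lowest in FP1.

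Markers of other cell types varied between libraries too. The sum of 6 mesenchyme markers, most of it from the collagens COL1A1, COL1A2 and COL3A1, was 3953 TPM in FP1, 5970 TPM in FP2 and 2873 TPM in FP3, and 1 of the 6 was lowest in FP1. The sum of 5 skeletal muscle markers was 12001, 9657 and 13248 TPM, with 1 of 5 lowest in FP1. Endothelial markers (4 of 5 annotated) summed to between 70.8 and 101 TPM, neuron markers (4 of 4) to between 68.7 and 85.6 TPM and immune markers (3 of 3) to between 8.93 and 19.2 TPM. The leukocyte marker PTPRC, with at most 0.882 TPM, was the lowest of these. The part of cell makeup in the FP1 difference was not tested.

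**Figure D2:**
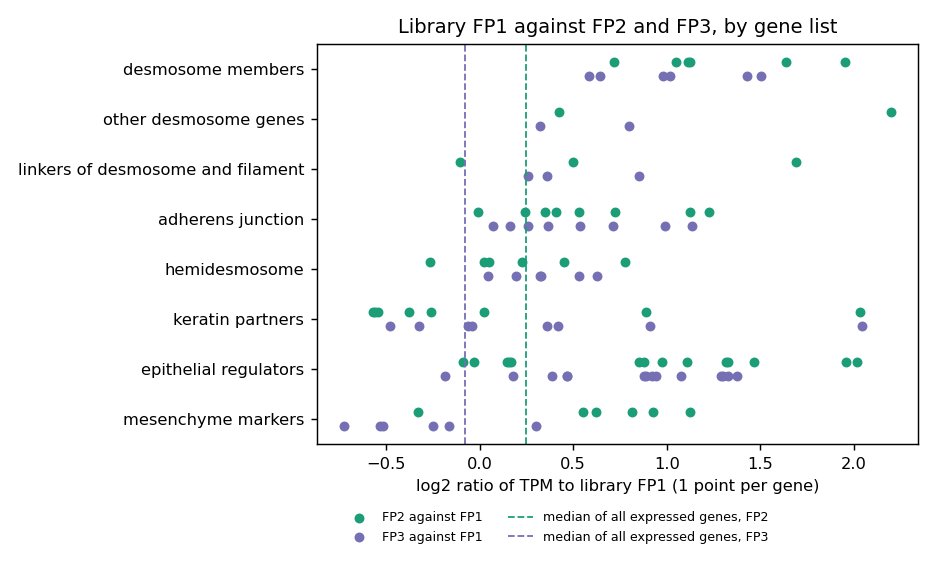
The log2 ratio of TPM in FP2 (green) and FP3 (purple) to FP1, with 1 point per gene in 8 gene lists and dashed lines at the medians of all expressed genes, 0.25 and -0.08. The 6 desmosome genes lie between 0.58 and 1.95, right of both dashed lines, while keratins and mesenchyme markers lie on both sides of 0. Both ratios are also above 0 for 12 of 14 epithelial regulators, 7 of 8 adherens junction genes and 5 of 6 hemidesmosome genes.

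At the transcription start site (TSS), all 6 desmosome genes carried a reproducible H3K4me3 peak, beside 67.7% of all gene models with such a peak within 1 kb. All 6 also carried a reproducible H3K27ac peak there, beside 71.5% of all gene models. For each gene both peaks covered the TSS itself and shared at least 50% of both lengths. The shares of all gene models with these stricter traits are not given here. The median fold enrichment of the 6 genes was 30.9 for H3K4me3 and 22.4 for H3K27ac, against 43.4 and 23.4 over all gene models with a peak at the TSS.

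JUP had the strongest H3K4me3 of the 6 TSSs, with a fold enrichment of 56.4 in replicate 1 and 85.8 in replicate 2, and was the only 1 of the 6 whose mean, 71.1, lay above the median of all gene models. DSP followed with 37.9 and 46.0, and PKP2 with 27.7 and 42.9. DSP was the higher in both replicates, though the replicate ranges of PKP2 and DSP overlapped. The RNA of PKP2 was between 27.7-fold and 50.4-fold lower than that of DSP.

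PKP1 (29.0 and 23.8) and PKP3 (21.6 and 30.3) had nearly the same mean, 26.4 and 26.0, and their replicates overlapped. PERP was the weakest, with 6.77 in replicate 1 and 9.97 in replicate 2, and both values lay below those of the other 5 genes. Its mean of 8.37 was at percentile 16.4 of 14682 gene models with H3K4me3 at the TSS, although its RNA level was at percentile 99.0 of all gene models.

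H3K27ac varied less between the 6 TSSs. PKP3 was measured at 26.8 in replicate 1 and 27.8 in replicate 2, JUP at 28.1 and 24.3, PKP2 at 26.9 and 19.8, and DSP at 22.6 and 20.4. Among these 4 genes, PKP3 and JUP exceeded DSP in both replicates without overlap of their values. JUP also exceeded PKP2 in both replicates, with overlapping values, and the other pairs changed order. PKP1 (19.7 and 10.8) and PERP (12.3 and 7.75) were lower in both replicates than each of the 4.

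Replicate 2 gave the higher H3K4me3 value for 5 of the 6 TSSs and the lower H3K27ac value for 5 of the 6. PKP1 was the exception for H3K4me3 and PKP3 for H3K27ac. Over all gene models with a peak at the TSS, replicate 2 was the higher for 71.9% with H3K4me3 and for 32.2% with H3K27ac, so the 6 genes were close to the whole. The median ratio of replicate 2 to replicate 1 was 1.17 for H3K4me3 and 0.884 for H3K27ac.

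**Figure D3:**
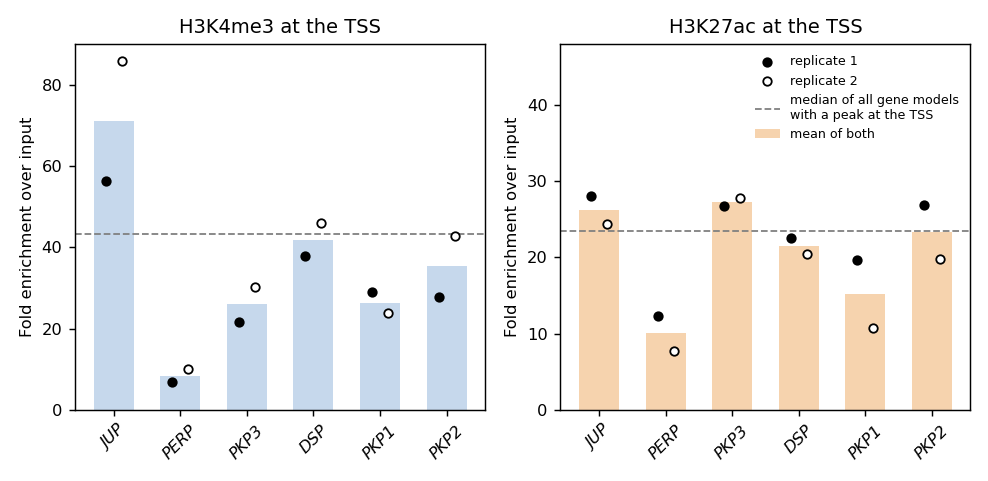
Fold enrichment over input of the peak at the TSS of each desmosome gene, with H3K4me3 left and H3K27ac right, bars for the mean of both replicates, filled points for replicate 1, open points for replicate 2 and a dashed line at the median of all gene models with such a peak. JUP is the only bar above the H3K4me3 median of 43.4, and PERP is the lowest bar for both marks.

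The ratio of H3K27ac to H3K4me3 fold enrichment at the TSS was 1.20 for PERP and 1.05 for PKP3, and between 0.369 and 0.662 for the other 4 genes. Its median over all gene models was 0.633. These ratios are of replicate means. At PERP, H3K27ac was above H3K4me3 in replicate 1 (12.3 against 6.77) and below it in replicate 2 (7.75 against 9.97). PKP3 changed in the same way, from 26.8 against 21.6 to 27.8 against 30.3. At PKP2 the values of replicate 1 were 26.9 against 27.7. Taken across replicates, the ratios of PERP and PKP3 thus overlapped that of PKP2. Within each replicate, however, the ratio was higher at PERP and at PKP3 than at each of the other 4 genes. The fold enrichments come from different antibodies, so the ratio compares genes and not the amounts of the marks.

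The H3K4me3 peak at the TSS was 5203 bp long at PKP3, 3879 bp at JUP, 3324 bp at DSP, 2424 bp at PKP1, 1060 bp at PKP2 and 859 bp at PERP, against a median of 2498 bp over all gene models. Length and strength thus followed different orders. PKP3 had the longest peak with a below-median strength, and PKP2 a short peak with a strength between those of DSP and PKP1. In replicate 1 the H3K4me3 summit of PKP3 lay 2864 bp downstream of the TSS and its H3K27ac summit 530 bp downstream. The strengths of both marks at PKP3, and their ratio, are thus read at different places. At each of the 6 genes the peak reached farther into the gene than upstream, at PKP3 by 4042 bp against 1160 bp and at PERP by 569 bp against 289 bp. The share of all gene models with that shape is not given here, so it is not called particular to these genes.

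The TSS peaks were also set against those of genes of like RNA level, within 2-fold of the same mean TPM, that carried H3K4me3 at the TSS (2867 of 3434 such genes for PKP2, 726 of 781 for DSP). JUP stood at percentile 62.2 of these peaks by fold enrichment and PKP2 at 38.0. DSP stood at 20.2, PKP1 at 10.1, PKP3 at 9.79 and PERP at 8.70. The median fold enrichment of these peaks was 43.0 for PKP2 and between 64.3 and 64.5 for the other 5.

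**Figure D4:**
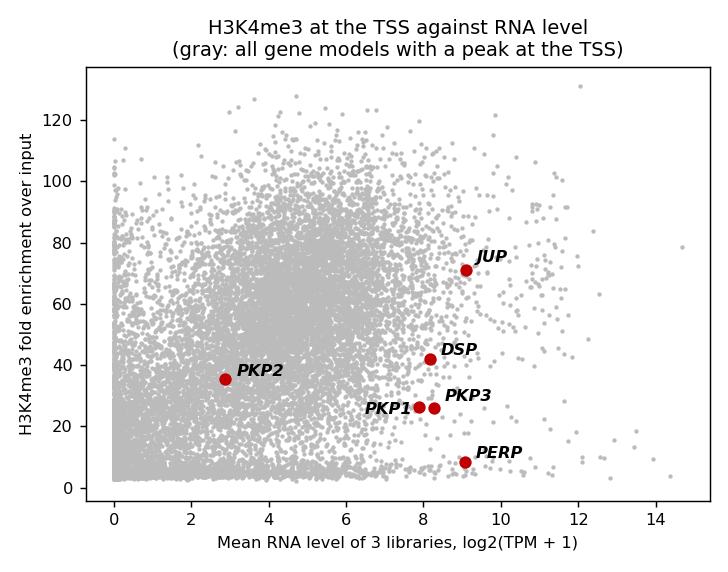
H3K4me3 fold enrichment over input at the TSS against mean RNA level, as log2(TPM + 1), for all 14682 gene models with such a peak (gray) and the 6 desmosome genes (red). PERP, at a fold enrichment of 8.37, and PKP1 and PKP3, near 26, lie low among genes of their RNA level, and JUP, at 71.1, does not.

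Within 100 kb of the 6 TSSs lay 102 reproducible H3K4me3 peaks, 122 reproducible H3K27ac peaks and 41 putative enhancers. All 6 genes had at least 1 enhancer in that window, beside 92% of all gene models. The median numbers per gene were 8 H3K4me3 peaks, 16.5 H3K27ac peaks and 4.5 enhancers, against 8, 13 and 5 over all gene models. The window holds other genes as well: 33 of the 102 H3K4me3 peaks, 43 of the 122 H3K27ac peaks and 18 of the 41 enhancers had the desmosome gene as the nearest TSS, and 23 of the 102 H3K4me3 peaks lay within 1 kb of the TSS of another gene model. Nearness does not show which gene an element acts on.

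PKP1 had the most enhancers of the 6 genes. Its window held 7 H3K4me3 peaks, 27 H3K27ac peaks and 21 enhancers, and its number of enhancers stood at percentile 97.1 of all gene models. The enhancers numbered 19 in replicate 2 alone and 21 in replicate 1 alone, but the H3K4me3 peaks numbered 18 and 16. No other TSS lay in the window. The nearest were IGFN1, 105 kb upstream at 0.880 TPM, and TNNT2, the cardiac troponin T gene, 147 kb downstream at 423 TPM.

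Of the 21 enhancers, 12 lay downstream of the PKP1 TSS and 9 upstream. Inside the gene, 9 lay in introns and 2 overlapped exons, 4 lay within the IGFN1 model, and 6 lay between genes. For 15 of the 21, PKP1 was the nearest TSS. Their fold enrichment ranged from 2.80 to 10.6 with a median of 4.92, below the 19.7 and 10.8 of the H3K27ac peak at the TSS. The strongest lay 40.0 kb upstream, at 5655647 to 5656302 of the scaffold, with a fold enrichment of 10.5 in replicate 1 and 10.7 in replicate 2. A weaker peak of replicate 1 beside it, 39.4 kb upstream at 2.65, was matched to the same peak of replicate 2. The strongest intronic enhancer, 29.0 kb downstream, reached 9.83 and 5.85.

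The window of DSP held 4 H3K4me3 peaks, 6 H3K27ac peaks and 2 enhancers, and apart from the peaks over the TSS all lay downstream. In replicate 1 alone there were 10 H3K27ac peaks and 6 enhancers. Besides the TSS, the strong pair of marks in the window was 52.9 kb downstream, with a fold enrichment of 37.4 and 41.4 for H3K4me3 and of 36.4 and 31.3 for H3K27ac. It covered the TSS of SNRNP48, a component of the minor spliceosome (21.1 ± 1.51 TPM, SD, n = 3). An enhancer in the last exon of DSP, 45.9 kb from the TSS, reached 4.93 and 5.32, and the other, 51.4 kb from the TSS, 4.41 and 4.62. Both lay nearer to the TSS of SNRNP48.

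PERP had 3 H3K4me3 peaks, 4 H3K27ac peaks and 1 enhancer. A peak of both marks 13.5 kb downstream of the TSS, at 17769140 to 17769730 of the scaffold for H3K4me3, overlapped exon 2 of the model. Its H3K4me3 fold enrichment was 10.6 in replicate 1 and 20.01 in replicate 2, above the 6.77 and 9.97 at the TSS in each replicate. Its H3K27ac fold enrichment was 11.9 and 20.03, against 12.3 and 7.75 at the TSS, so for that mark the replicates did not give the same order. No other gene model has its TSS there. The third H3K4me3 peak, 67.8 kb upstream at 23.7 and 41.4, covered the TSS of ARFGEF3 (0.445 ± 0.269 TPM, SD, n = 3), and the enhancer, 47.8 kb downstream, was weak at 3.65 and 3.79.

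PKP2 had 9 H3K4me3 peaks, 5 H3K27ac peaks and 1 enhancer. It was the gene with the most H3K4me3 peaks that shared no base with H3K27ac, 5 of 9, whereas JUP, PKP1 and PKP3 had 1 each, of 33, 7 and 46, and DSP and PERP none. Of the 5 peaks of PKP2 without H3K27ac, 4 lay between 17.8 and 25.1 kb upstream of the TSS, with fold enrichments from 3.37 to 6.57 in single replicates. The other 1 lay in an intron 38.4 kb downstream at 4.95 and 8.48. A peak 12.6 kb upstream carried both marks, at 7.55 and 8.57 for H3K4me3 and at 3.08 and 3.17 for H3K27ac. The strongest peak away from the TSS, 49.1 kb upstream at 22.6 and 28.7, covered the TSS of CNTN1, a neural cell adhesion gene (1.75 ± 0.643 TPM, SD, n = 3). The 1 enhancer, 60.0 kb upstream at 2.77 and 3.79, lay within the CNTN1 model.

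JUP lay among genes, with 8 other TSSs in its window, 33 H3K4me3 peaks, 36 H3K27ac peaks and 9 enhancers. Of its H3K4me3 peaks, 7 lay within 1 kb of another TSS. The strongest, 80.7 kb upstream at 77.0 and 72.0, covered the TSS of KLHL11 (9.47 ± 2.20 TPM, SD, n = 3). Another, 29.2 kb upstream at 46.3 and 62.7, covered those of P3H4 and FKBP10, which serve collagen folding. The strongest H3K27ac peak, 96.0 kb downstream at 62.0 and 42.1, covered the TSS of the translation initiation factor EIF1 (615 ± 29.9 TPM, SD, n = 3). Inside JUP, an H3K27ac peak 13.0 kb from the TSS reached 13.2 and 13.4. The 9 enhancers were weak, from 3.50 to 6.58 in the mean of both replicates, and JUP was the nearest TSS for 2 of them. In replicate 2 alone there were 5.

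PKP3 had the most crowded window, with 13 other TSSs, 46 H3K4me3 peaks, 44 H3K27ac peaks and 7 enhancers. Of its H3K4me3 peaks, 13 lay within 1 kb of another TSS, and 7 had PKP3 as the nearest. The peaks of the window covered 121 kb with H3K4me3 and 142 kb with H3K27ac. The strongest were broad: 1 of 22176 bp, 85.9 kb downstream at 44.9 and 59.7, covered the TSSs of the ribonuclease inhibitor gene RNH1 and of LOC100920670, and 1 of 10075 bp, 56.2 kb downstream at 41.0 and 62.0, covered that of LOC116419914. Nearer to PKP3, an H3K4me3 peak 9.79 kb upstream was measured at 12.2 and 18.9 and an H3K27ac peak 9.64 kb upstream at 12.6 and 16.4. None of the 7 enhancers had PKP3 as the nearest TSS, and their number was 3 in replicate 2 alone and 13 at q below 0.001.

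**Figure D5:**
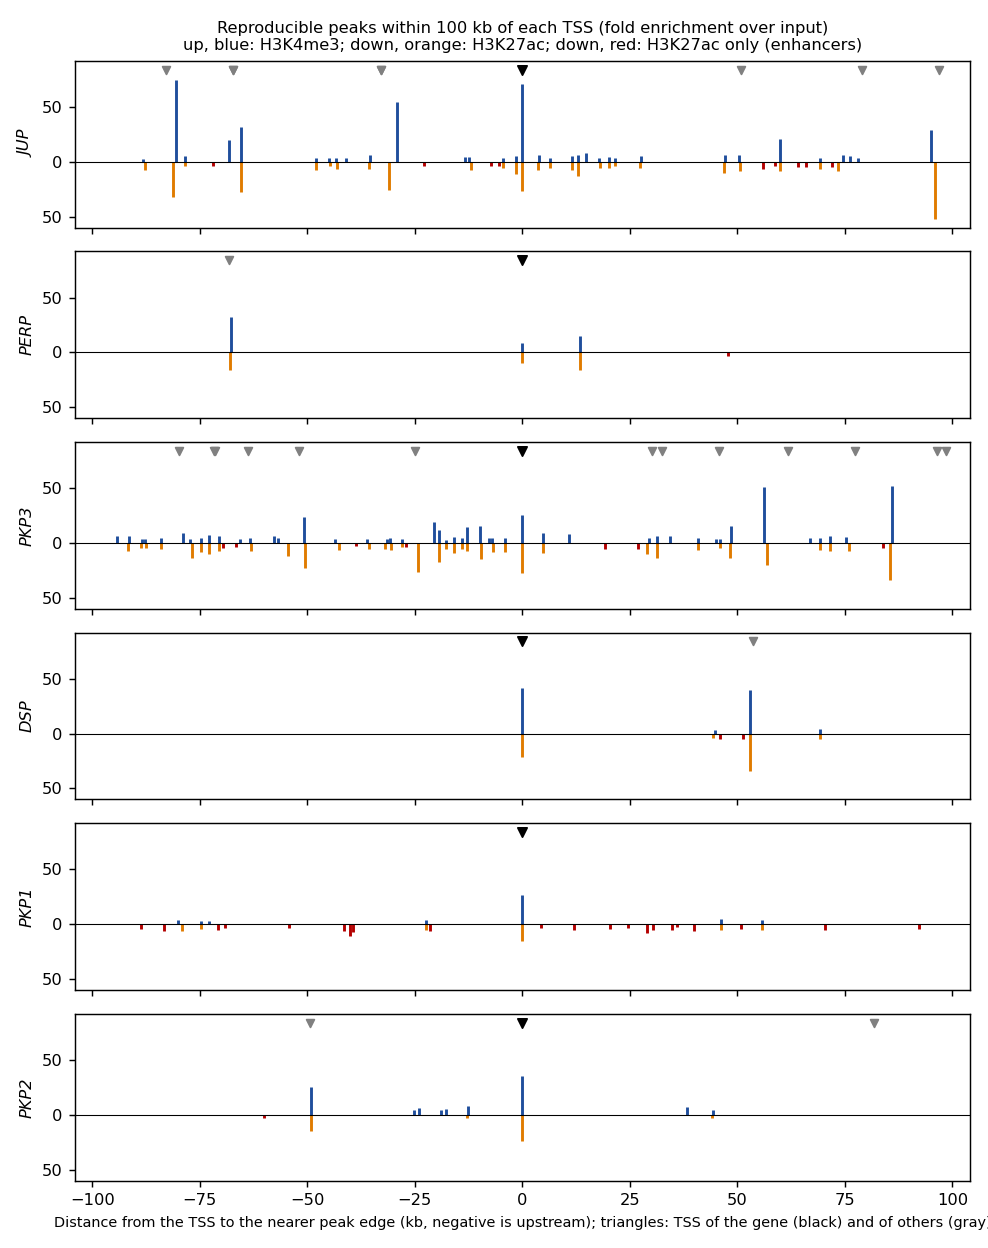
Reproducible peaks within 100 kb of the TSS of each desmosome gene, with the distance in kb from the TSS to the nearer edge of the peak on the x axis and the mean fold enrichment over input on the y axis, H3K4me3 up in blue, H3K27ac down in orange and enhancers down in red. Triangles mark the TSS of the gene (black) and of other gene models (gray). The 21 enhancers of PKP1 lie in a window with no other TSS, while the strongest peaks of JUP and PKP3 away from their own TSS cover the TSS of another model, marked by a gray triangle beyond the plotted edge.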

How the data were processed

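For ChIP, the authors used cutadapt (1.9.1) for trimming, Bowtie2 (2.3.5.1) for alignment to their dunnart assembly, Picard (2.23.1) against duplicates and MACS2 (2.1.1) for peaks, each replicate set against its own input. The deposited lists hold a fold enrichment over input (a ratio), -log10 p-values and q-values, and a display score that was not used. The deposited RNA counts are raw fragment counts per gene over exons from HISAT2 alignments by featureCounts (Subread 2.0.1, reversely stranded), on Tasmanian devil gene models moved to the dunnart with Liftoff (1.0), so start sites and exon lengths depend on that transfer.

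TPM, reproducible peaks, mark classes and distances were computed with Python (3.11.15), pandas (2.3.3) and bedtools (2.31.1), and were tested on simulated data. edgeR (4.0.16) in R (4.3.3) gave TMM factors for an alternative scaling. Distances run to the nearer peak edge. Several peaks of replicate 1 can share a partner in replicate 2. ChIP depth was not measured, since the peak lists hold no read totals.

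The 10 genes and the comparison lists were chosen with earlier results of these data known. The naming rule covered the 10 genes and allowed, of each other list, the 3 genes of highest mean TPM and those under 1 TPM, and neighbours within 100 kb on which a peak count turns. TNNT2, IGFN1, KRT4, CDH1 and ESRP1 were named outside that rule after their values were seen. No sequence was used here.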

Additional observations from a re-analysis of the deposited data

How the results depend on the processing

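Of 67 alternatives for the summary values, 57 stayed within the spread between replicates or within 1.5-fold of the reported count. Of 96 for the TPM and TSS enrichment of single genes, 91 did, but most of the 96 could not move. Stricter q thresholds and all deposited peaks returned the same TSS enrichment. A mean that leaves out a library or a replicate stays within the spread by construction. Only the other scalings could move the TPM of a gene. None was counted as reversed, but a single level or enrichment has no direction to reverse. The summed level of the 6 genes, 1924 TPM in the mean of 3 libraries, became 4137 CPM, a unit that does not divide by exon length, and the TPM of 5 genes moved under that setting. The 102 H3K4me3 peaks, 122 H3K27ac peaks and 41 enhancers became 62, 72 and 22 within 50 kb and 166, 249 and 114 within 200 kb, and 33, 43 and 18 when peaks nearer to another TSS were left out. The enhancers of PKP1 numbered 21 as reported, 19 at q below 0.001, 13 within 50 kb and 39 within 200 kb, while the 1 enhancer of PKP2 was lost at q below 0.01, with all deposited peaks and within 50 kb. Peak counts of single genes moved by over 1.5-fold more often. With replicate 2 alone, the H3K4me3 peaks of PKP1 became 18 from 7, the H3K27ac peaks of PKP2 8 from 5, and the enhancers of JUP 5 from 9, of PKP3 3 from 7 and of PERP 2 from 1. With replicate 1 alone, the H3K4me3 peaks of PKP1 became 16, the H3K27ac peaks of DSP 10 from 6 and of PKP2 8, and the enhancers of DSP 6 from 2 and of PKP2 2 from 1. At q below 0.001, the H3K4me3 peaks of DSP became 2 from 4 and of PKP1 3, the H3K27ac peaks of PKP2 2, and the enhancers of DSP 4 and of PKP3 13. At q below 0.01 the H3K27ac peaks of PKP2 became 3, and with 50% of both lengths shared the enhancers of PKP3 became 13. No paired analysis was possible because the RNA columns carry no replicate numbers and no result comes from a test. With only 3 RNA libraries and 2 ChIP replicates, orders that changed between them could not be settled, and orders shared by all are descriptive.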
